A study of Mus musculus with 8 samples.

Results

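The genes described here are 10 genes of the pentose phosphate pathway and of other routes to NADPH: G6pdx, Pgls, Pgd, Rpia, Rpe, Tkt, Taldo1, Idh1, Me1 and Me2. They were chosen by symbol, and all 10 were found among the 15576 genes of the deposited table. Their levels were compared between cells sorted as leukemia stem cells (LSCs) from the bone marrow of mice with chronic myeloid leukemia (CML) that were untreated and cells sorted in the same way from CML mice treated with imatinib (IM), a tyrosine kinase inhibitor (TKI), with 4 bulk RNA-seq libraries a group. All the mice were C57BL/6 and carried BCR-ABL and SCL-tTA, so that BCR-ABL is expressed from a tetracycline-controlled promoter where the Scl regulatory sequence drives the activator, that is in stem and early progenitor cells, once tetracycline is withdrawn. CML mice received no drug, and CML-TKI mice received IM at 400 mg/kg by gavage every other day, for 4 weeks in one field of the labels and for 30 days in another. This is the dose of the labels, and the study's text gives a lower dose for the mice of this experiment and a choice of doses in its methods. The ages of the mice are not given. The labels describe the sorted cells of both groups as Lin-Sca1+cKit+Flt3-CD150-CD48+, whereas the study's text defines LSCs by the opposite pattern of CD48 and CD150. The CML libraries are called CML 1, 2, 3 and 5, as their columns are named, and the treated ones CML-TKI 1 to 4. No source says that each library came from a separate mouse, so p-values measure the spread between these libraries. The comparison asks how the transcripts of this pathway differ between cells sorted from IM-treated and from untreated CML mice.

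The libraries held between 4939644 and 8620101 counts in CML and between 1041552 and 5104268 in CML-TKI, and 3 counts, taken as the floor for counting error only, corresponded to at most 0.580 CPM (counts per 1000000 counts of the library, scaled by the TMM method) in CML but to 3.29 CPM in CML-TKI 3. The surface genes of the sort differed between the groups. Slamf1, which encodes CD150, lay between 29.01 and 37.7 CPM in CML and between 0.62 and 6.58 CPM in CML-TKI, and Cd48 lay between 3.86 and 6.40 CPM in CML and between 39.9 and 178.2 CPM in CML-TKI. Kit was lower in CML-TKI, while Ly6a (Sca1) and Flt3 did not pass the test. The CML libraries thus had high Slamf1 and low Cd48 and the CML-TKI libraries the reverse, so these genes do not show the 2 groups as the same cell type, and the libraries are called here by their group and not as LSCs. The sum of 12 granulocyte markers was 106.0 to 177.8 CPM in CML and 1419 to 8131 CPM in CML-TKI, with none at 0 in any library, and the sum of 13 stem cell markers was 1967 to 2515 CPM in CML and 241.1 to 728.8 CPM in CML-TKI, with all 12 tested below 0 on the log2 scale at a median of -3.13, 10 of them lower without overlap, against 13.1% of all genes, and 5 called lower, against 3.93%. Hlf, a stem cell factor, lay between 255.6 and 364.3 CPM in CML and between 4.42 and 82.1 CPM in CML-TKI. The stem cell marker Procr had 52, 0, 6 and 0 counts in CML-TKI 1 to 4 and passed the filter on low counts through its CML levels. The numbers of stem cell markers called or without overlap were thus partly set by that filter. The sum of 8 megakaryocyte markers was 1284 to 1607 CPM in CML and 50.5 to 633.7 CPM in CML-TKI, with 3 of 8 called lower, against 3.93% of all genes. The sum of 6 mast cell and basophil markers was 256.5 to 360.6 CPM in CML, 193.0, 225.9 and 70.1 CPM in CML-TKI 1 to 3 and 1230 CPM in CML-TKI 4, where the basophil protease gene Prss34 alone was at 840.3 CPM. Of the 2 tested 1 was called higher and 1, Gata2, lower, against 6.29% and 3.93% of all genes. The sum of 8 endothelial and stromal markers was 105.8 to 1037 CPM in CML, highest in CML 3, where Col1a1 was at 395.8 CPM, and 63.5 to 215.9 CPM in CML-TKI. Cdh5, 1 of the 8, was called lower, against 3.93% of all genes. CML-TKI 1 held 400 genes at 10 CPM or more that were over 5 times every other library, among them Sox10 at 232.3 and Col2a1 at 905.4 CPM, and CML-TKI 3 held 199, with Hba-a1 at 19625 CPM and the Y-linked Ddx3y, which had no count elsewhere, at 55.9 CPM. In bulk RNA, more cells of a type and more RNA per cell cannot be told apart. The part of these shifts in the results on the 10 genes was not tested, and the log2 fold changes of the tested genes among the 10 are therefore also given without CML-TKI 1 and 3.

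The pentose phosphate pathway starts from glucose-6-phosphate. Its oxidative branch reduces NADP+ to NADPH in a pair of dehydrogenase steps and ends in ribulose-5-phosphate, and its non-oxidative branch converts this sugar to ribose-5-phosphate for nucleotides or, through transketolase and transaldolase, back to intermediates of glycolysis. Cytosolic isocitrate dehydrogenase and the cytosolic malic enzyme make NADPH from other carbon sources. In blood cells NADPH keeps glutathione reduced, and in granulocytes and monocytes it also feeds the oxidase that makes superoxide.

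The 9 genes with a promoter window in the RefSeq table (build GRCm38.p6, 250 bases before to 50 after a start, 12 windows) were searched on both strands for TGACNNNGC and TTCNNNGAA. TGACNNNGC is the core of the antioxidant response element and TTCNNNGAA the core bound by STAT factors. TGACNNNGC was found in 3 of the 12 windows, for G6pdx, Me1 and Pgd, against 12.4% of all 32851 windows. TTCNNNGAA was found in none of them, against 8.3% of all windows. The 3 windows with a match are shown from 188 bases before to 12 after the start, because they are the windows of the 10 genes that hold the motif, with the match in capitals.
G6pdx, chrX:74428869-74429068, minus strand: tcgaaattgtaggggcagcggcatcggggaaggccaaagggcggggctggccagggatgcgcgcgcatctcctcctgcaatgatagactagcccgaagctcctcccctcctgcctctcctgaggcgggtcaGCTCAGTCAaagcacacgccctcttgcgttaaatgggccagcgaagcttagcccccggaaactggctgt
Me1, chr9:86695903-86696102, minus strand: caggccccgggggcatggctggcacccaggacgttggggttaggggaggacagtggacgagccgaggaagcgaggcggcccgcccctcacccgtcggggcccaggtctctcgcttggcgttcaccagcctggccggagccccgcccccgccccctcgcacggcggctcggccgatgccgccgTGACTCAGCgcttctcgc
Pgd, chr4:149166071-149166270, minus strand: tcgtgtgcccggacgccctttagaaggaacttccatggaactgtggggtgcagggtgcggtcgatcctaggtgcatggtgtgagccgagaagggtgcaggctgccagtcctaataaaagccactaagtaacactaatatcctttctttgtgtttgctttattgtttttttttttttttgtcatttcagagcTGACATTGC
In the G6pdx sequence the match TGACTGAGC is on the opposite strand and its leftmost printed base lies 57 bases before the start. In Me1 the match TGACTCAGC begins 6 bases before the start. In Pgd the match TGACATTGC begins at the 4th base of the transcript, at the more downstream of its 2 annotated starts. The windows at the other start of Pgd and at the other start of Me1 held no match. A match describes these letters only, and no binding was measured here.

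Of the 10 genes, 9 had enough counts to be tested by edgeR's quasi-likelihood test over 11937 genes with Benjamini-Hochberg adjustment. At an adjusted p under 0.05, 5 were higher in CML-TKI: G6pdx, Pgd, Rpe, Taldo1 and Idh1. None of the 9 was lower, also at an unadjusted p under 0.05 or by DESeq2 or limma-voom, and Pgls, Rpia, Tkt and Me2 did not pass. Over all genes tested, 6.29% were higher and 3.93% lower by the same rule. The same 5 genes were those whose groups did not overlap, all higher in CML-TKI, against 10.3% of all genes tested without overlap and higher and 13.1% without overlap and lower. The median log2 fold change of the 9 genes was 1.27, and that of all genes was -2.6e-04. Without CML-TKI 1 and 3, a choice made after seeing the data, the 5 calls remained, Me2 was also higher, and Me1, which could then be tested, was lower. Calls also rose over all genes in that fit, to 10.5% higher and 15.7% lower of 12457 genes tested, so the added calls of Me2 and Me1 are read beside these shares.

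**Figure D1:**
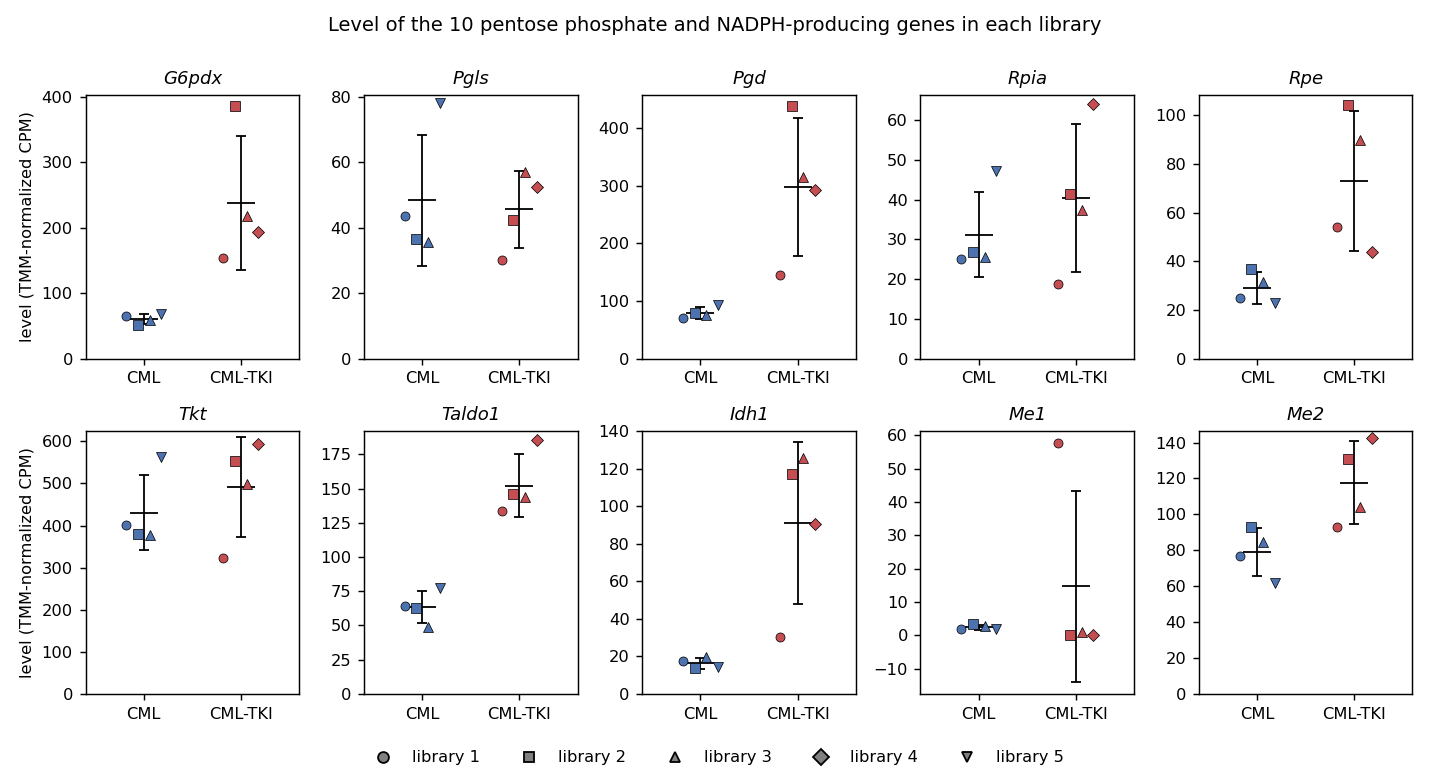
Level of each of the 10 genes (TMM-normalized CPM, linear axis) in the 4 CML (blue) and 4 CML-TKI (red) libraries, with symbols for the library number and bars for the mean and SD. G6pdx, Pgd, Rpe, Taldo1 and Idh1 lie higher in all 4 CML-TKI libraries than in any CML library, while Me1 is high in CML-TKI 1 alone, at 57.7 CPM.

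In the oxidative branch, the transcripts of both NADPH-producing dehydrogenases rose and that of the lactonase between them did not pass the test. G6pdx (X, 74409483 to 74428880, GRCm38), which encodes glucose-6-phosphate dehydrogenase, the committed step, was at 65.2, 50.6, 58.4 and 67.4 CPM in CML 1, 2, 3 and 5 and at 153.1, 385.2, 217.0 and 193.3 CPM in CML-TKI 1 to 4. The lowest CML-TKI library was thus above the highest CML library, and CML-TKI 2 was the highest of all. The mean rose 3.93-fold, from 60.4 ± 7.59 to 237.1 ± 102.2 CPM (SD, n = 4 each), with a log2 fold change of 1.97 (SE 0.30) and an edgeR adjusted p of 0.00368. Without CML-TKI 1 and 3 the log2 fold change was 2.25 (edgeR adjusted p = 0.00147). With CML 1 to 3 summed to 1 library it was 1.89 and no longer called (edgeR adjusted p = 0.111).

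Pgd (4, 149149991 to 149166705), which encodes 6-phosphogluconate dehydrogenase, the second NADPH-producing step, was at 69.9, 78.2, 76.1 and 93.6 CPM in CML and at 144.9, 438.5, 314.5 and 292.4 CPM in CML-TKI. It had the same highest and lowest CML-TKI libraries as G6pdx, CML-TKI 2 and CML-TKI 1. Its mean rose 3.75-fold, from 79.5 ± 10.1 to 297.6 ± 120.4 CPM (SD, n = 4 each), with a log2 fold change of 1.90 (SE 0.32) and an edgeR adjusted p of 0.00581. It was 2.20 without CML-TKI 1 and 3 (edgeR adjusted p = 7.80e-04) and 1.80, no longer called, with CML 1 to 3 summed (edgeR adjusted p = 0.146). Pgls (8, 71592184 to 71596267), the lactonase that acts between the dehydrogenases, was at 43.4, 36.5, 35.6 and 78.0 CPM in CML and at 30.2, 42.5, 57.0 and 52.6 CPM in CML-TKI. The groups overlapped, CML 5 held the highest level and CML-TKI 1 the lowest, and the log2 fold change was -0.10 (SE 0.33, edgeR adjusted p = 0.889), with a sign that changed with the libraries and the test used.

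The intronless G6pd2, a near copy of G6pdx on chromosome 5, may share reads with it, and its level is uncertain. It was at 0.77 to 1.55 CPM in CML and at 1.82 to 16.1 CPM in CML-TKI and had too few counts for the test. Its counts came to 0.0202 ± 0.0073 of those of G6pdx in CML and to 0.0285 ± 0.0155 in CML-TKI (SD, n = 4 each), ratios whose groups overlapped. With the counts of both genes added, the log2 fold change of G6pdx was 1.99 (edgeR adjusted p = 0.00380). H6pd encodes the enzyme of the first steps of the oxidative branch in the endoplasmic reticulum. H6pd was at 131.2 ± 13.8 CPM in CML and 114.5 ± 25.2 CPM in CML-TKI and did not pass the test (edgeR adjusted p = 0.618, n = 4 each).

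In the non-oxidative branch, Rpe and Taldo1 rose, and Rpia and Tkt did not pass the test. Taldo1 (7, 141392160 to 141402976), which encodes transaldolase, was at 64.0, 62.9, 48.7 and 77.3 CPM in CML and at 133.3, 146.3, 143.6 and 185.5 CPM in CML-TKI. Its CML-TKI libraries lay closer together than those of the oxidative dehydrogenases, and CML-TKI 4 rather than CML-TKI 2 was the highest. The mean rose 2.41-fold, from 63.2 ± 11.7 to 152.2 ± 22.9 CPM (SD, n = 4 each), with a log2 fold change of 1.27 (SE 0.22) and an edgeR adjusted p of 0.00655. Without CML-TKI 1 and 3 the log2 fold change was 1.39 (edgeR adjusted p = 0.00481). With CML 1 to 3 summed to 1 library it was 1.14 and no longer called (edgeR adjusted p = 0.177).

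Rpe (1, 66700797 to 66719805), the epimerase that makes xylulose-5-phosphate, was at 25.1, 36.9, 31.5 and 22.7 CPM in CML and at 53.9, 104.1, 89.9 and 44.0 CPM in CML-TKI. The gap between the groups was narrow, from 36.9 CPM in CML 2 to 44.0 CPM in CML-TKI 4. The mean rose 2.51-fold, from 29.03 ± 6.42 to 73.0 ± 28.6 CPM (SD, n = 4 each), with a log2 fold change of 1.32 (SE 0.33) and an edgeR adjusted p of 0.0313. This call was lost when any of CML 1, CML 2, CML 3, CML 5, CML-TKI 2 or CML-TKI 3 was left out, with edgeR adjusted p values from 0.0153 to 0.107 over the 8 omissions. Without both CML-TKI 1 and 3 it held, at a log2 fold change of 1.35 (edgeR adjusted p = 0.0293). It was also lost with CML 1 to 3 summed, over libraries 1 to 3 of each group and after thinning, at log2 fold changes of 1.43, 1.42 and 1.34 (edgeR adjusted p = 0.235, 0.0575 and 0.193).

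Tkt (14, 30549131 to 30574724), which encodes transketolase, was at 401.7, 380.0, 377.6 and 562.8 CPM in CML and at 323.8, 553.2, 499.8 and 592.6 CPM in CML-TKI. CML-TKI 1 was the lowest and CML-TKI 4 the highest of the 8 libraries, the groups overlapped, and the log2 fold change was 0.19 (SE 0.24, edgeR adjusted p = 0.672). Rpia (6, 70765720 to 70792175), the isomerase that makes ribose-5-phosphate, was at 25.1, 26.8, 25.5 and 47.2 CPM in CML and at 18.8, 41.5, 37.3 and 64.0 CPM in CML-TKI. Its lowest and highest libraries were the same as those of Tkt, and its log2 fold change was 0.38 (SE 0.39, edgeR adjusted p = 0.595). Without CML-TKI 1 and 3 the log2 fold changes of Pgls, Tkt and Rpia were -0.03, 0.41 and 0.76 and none was called (edgeR adjusted p = 0.962, 0.244 and 0.142). Of the 4 CML libraries, CML 5 held the highest level of Tkt and Rpia as well as of G6pdx, Pgls, Pgd and Taldo1.

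Outside the pathway, Idh1 had the largest log2 fold change of the 9 tested genes. Idh1 (1, 65158616 to 65186479), which encodes the cytosolic and peroxisomal NADP-dependent isocitrate dehydrogenase, was at 17.6, 13.7, 19.7 and 14.3 CPM in CML and at 30.6, 117.5, 126.0 and 90.8 CPM in CML-TKI. CML-TKI 1 stood nearest to the CML libraries, and the other CML-TKI libraries were all above 90 CPM. The mean rose 5.59-fold, from 16.3 ± 2.83 to 91.2 ± 43.1 CPM (SD, n = 4 each), with a log2 fold change of 2.47 (SE 0.42) and an edgeR adjusted p of 0.00608. Without CML-TKI 1 and 3 the log2 fold change was 2.67 (edgeR adjusted p = 4.29e-04). With CML 1 to 3 summed to 1 library it was 2.51, over libraries 1 to 3 of each group 2.42 and after thinning every library to the smallest total 2.22, and it was called in none of these (edgeR adjusted p = 0.112, 0.0581 and 0.0948).

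Idh2, the mitochondrial partner of Idh1, was at 139.7 ± 23.2 CPM in CML and 126.1 ± 45.2 CPM in CML-TKI and did not pass the test (log2 fold change -0.14, edgeR adjusted p = 0.789, n = 4 each). The ratio of Idh1 to Idh2 counts was 0.128, 0.115, 0.152 and 0.0829 in CML and 0.294, 0.625, 1.51 and 0.702 in CML-TKI. The ratios of the groups did not overlap, and Idh1 exceeded Idh2 in CML-TKI 3 alone. Both counts of a ratio come from the same library, so it does not depend on the scaling.

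The malic enzymes, which turn malate to pyruvate, gave no call with all 8 libraries. Me2 (chromosome 18), a mitochondrial form that uses mainly NAD+ and to a lesser extent NADP+, was at 77.1, 93.0, 84.8 and 61.9 CPM in CML and at 92.9, 130.8, 104.1 and 142.6 CPM in CML-TKI. The groups met at 93.0 CPM in CML 2 and 92.9 CPM in CML-TKI 1, and the log2 fold change was 0.57 (SE 0.22, edgeR adjusted p = 0.138). Without CML-TKI 1 and 3 it was 0.78 (edgeR adjusted p = 0.0335).

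Me1 (9, 86581363 to 86695914), the cytosolic form, was low in all libraries but CML-TKI 1. It had 13, 17, 14 and 14 counts in CML 1, 2, 3 and 5 and 304, 0, 1 and 0 counts in CML-TKI 1 to 4, or 1.77, 3.28, 2.71 and 1.92 CPM against 57.7, 0, 1.10 and 0 CPM. The 0 counts allow up to 0.930 CPM in CML-TKI 2 and 0.780 CPM in CML-TKI 4, both under every CML level, while the 1 count of CML-TKI 3 lies under that library's floor of 3.29 CPM. With all 8 libraries and TMM scaling Me1 failed the filter on low counts and was not tested. Where it could be tested with CML-TKI 1 in the fit, it was above 0 on the log2 scale and not called, with edgeR adjusted p values of 0.344 with the filter removed, 0.345 when scaled by total counts without Rn45s and 0.203 to 0.518 with a single other library left out. It was lower in CML-TKI when CML-TKI 1 and 3 were left out, with an edgeR adjusted p of 0.0160. The direction of the Me1 mean thus rests on CML-TKI 1, the library that also held Sox10 and Col2a1.

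**Figure D2:**
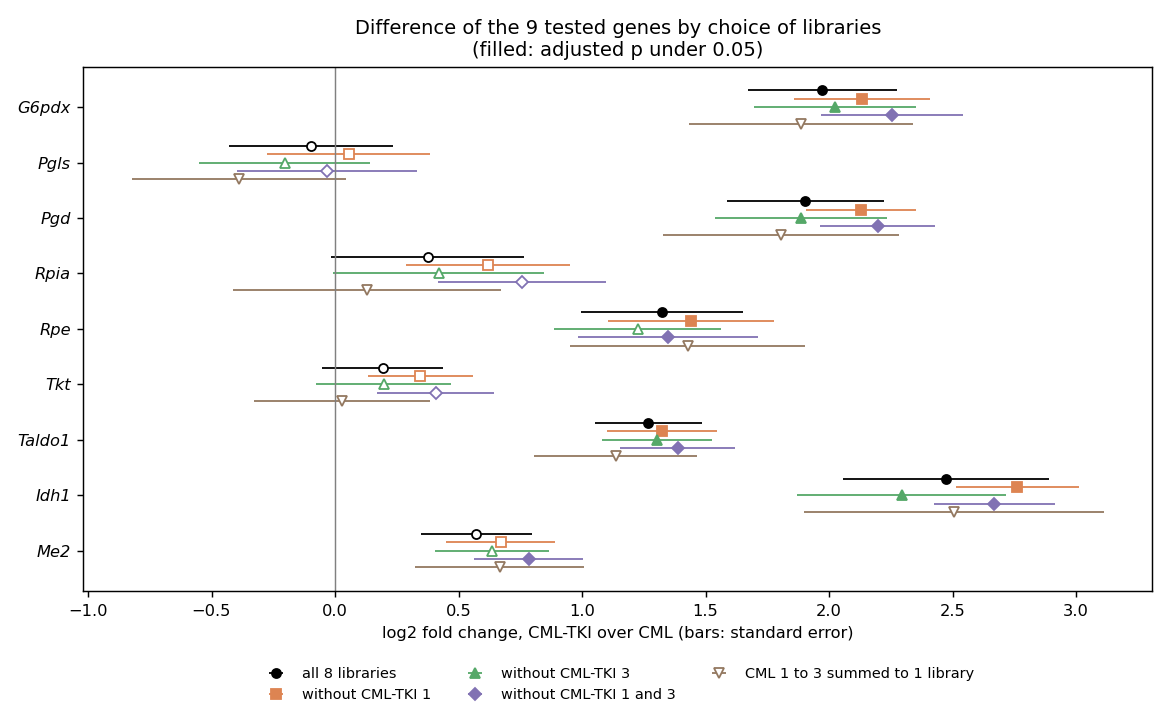
Log2 fold change of the 9 tested genes, CML-TKI over CML, with bars for the standard error, under 5 choices of libraries, and with filled symbols for an edgeR adjusted p under 0.05. Idh1 lies farthest from 0 at 2.47 with all 8 libraries, and the 5 calls keep their direction but are open when CML 1 to 3 are summed to 1 library.

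The level of each gene relative to the others was compared per length, as CPM per kilobase of the longest GENCODE transcript linked to a RefSeq mRNA. In the CML libraries Tkt was first at 133.6 ± 27.6 CPM per kb, followed by Taldo1 at 51.4 ± 9.50, Pgls at 45.5 ± 18.9 and Pgd at 35.8 ± 4.55 (SD, n = 4). Me2 at 30.02 ± 5.03, G6pdx at 22.8 ± 2.86, Rpia at 17.0 ± 5.85, Rpe at 10.7 ± 2.37, Idh1 at 7.09 ± 1.23 and Me1 at 0.735 ± 0.214 CPM per kb came next. Neighbours in this order overlapped over the CML libraries except Tkt and Taldo1, Rpia and Rpe, whose nearest values were 13.7 and 13.6 CPM per kb, and Idh1 and Me1. In the CML-TKI libraries Tkt, at 152.8 ± 36.8 CPM per kb, was followed, with overlapping libraries, by Pgd at 134.2 ± 54.3 and Taldo1 at 123.8 ± 18.6, and G6pdx was next at 89.4 ± 38.5. Idh1 reached 39.6 ± 18.7 CPM per kb, close to Pgls at 42.9 ± 11.2 and Me2 at 44.6 ± 8.73. Levels assume the longest mRNA of each gene, and the isoforms in use are unknown.

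**Figure D3:**
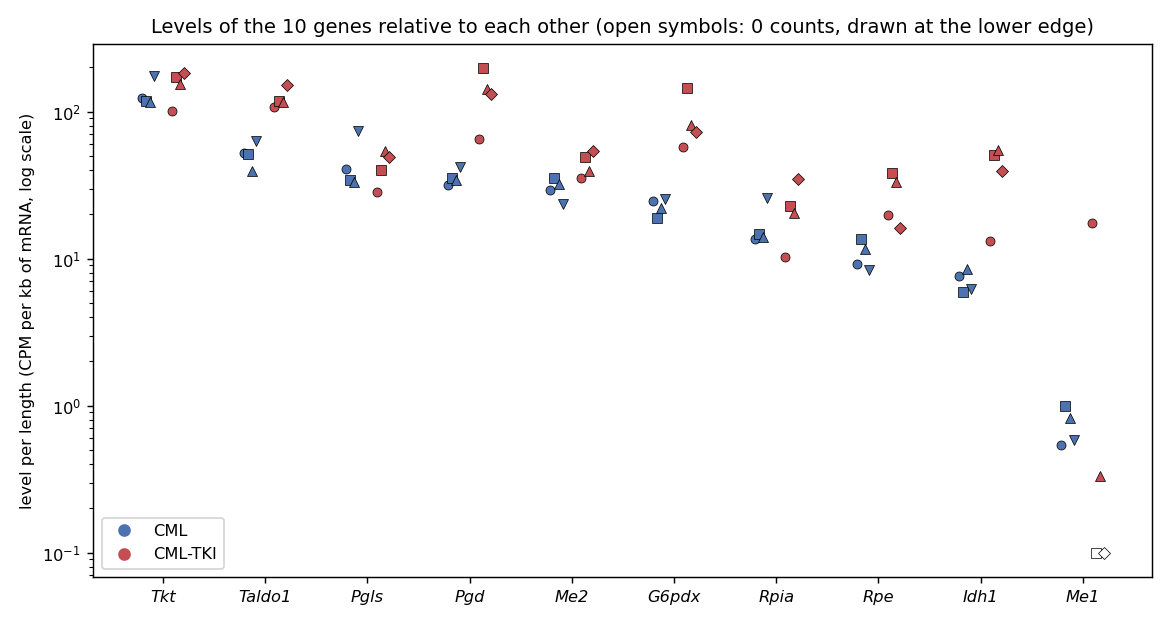
Level per length of the 10 genes (CPM per kb of mRNA, log axis) in each CML (blue) and CML-TKI (red) library, ordered by the CML mean, with open symbols at the lower edge for 0 counts. Tkt is highest in CML at 133.6 CPM per kb, and Pgd and Taldo1 come near it in CML-TKI at 134.2 and 123.8 CPM per kb.

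Summed by branch, levels of G6pdx, Pgls and Pgd were 178.5, 165.2, 170.1 and 238.9 CPM in CML and 328.2, 866.2, 588.5 and 538.3 CPM in CML-TKI. The mean sum was 3.08-fold higher in CML-TKI, from 188.2 ± 34.3 to 580.3 ± 221.4 CPM (SD, n = 4 each), and the groups did not overlap. The sum of Rpia, Rpe, Tkt and Taldo1 was 515.9, 506.7, 483.3 and 709.9 CPM in CML and 529.9, 845.1, 770.5 and 886.1 CPM in CML-TKI. CML 5 lay above CML-TKI 1 here, so the groups overlapped, at means of 553.9 ± 104.9 and 757.9 ± 159.3 CPM (SD, n = 4 each). Tkt made up 75.0 to 79.3% of this sum in CML and 61.1 to 66.9% in CML-TKI. These shares are of CPM not divided by mRNA length. The sum of Idh1, Me1 and Me2 went from 97.9 ± 14.5 to 223.5 ± 29.2 CPM (SD, n = 4 each), 2.28-fold higher without overlap. These sums add chosen genes and were given no test.

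Transketolase and transaldolase act in the same branch, and the ratio of their transcripts shifted. There were 6.28, 6.04, 7.75 and 7.28 Tkt counts for each Taldo1 count in CML and 2.43, 3.78, 3.48 and 3.19 in CML-TKI. The groups did not overlap, with means of 6.84 ± 0.815 and 3.22 ± 0.580 (SD, n = 4 each), and CML-TKI 1 had the lowest ratio. Leaving out any single library, the CML-TKI mean minus the CML mean lay between -3.88 and -3.31.

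**Figure D4:**
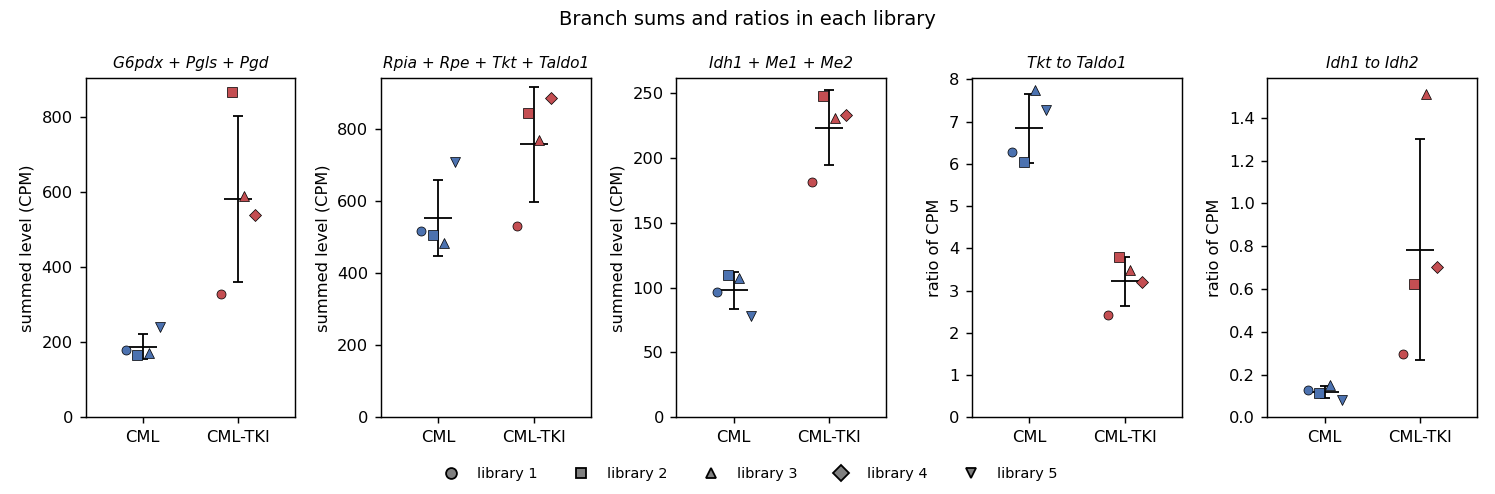
Summed levels (CPM) of 3 groups of genes and the ratios of Tkt to Taldo1 and Idh1 to Idh2 in each CML (blue) and CML-TKI (red) library, with bars for the mean and SD. The sum of the oxidative genes and the ratio of Idh1 to Idh2 are higher in all 4 CML-TKI libraries, the ratio of Tkt to Taldo1 is lower in all 4, and the sum of the non-oxidative genes overlaps.

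The CML-TKI libraries differed among themselves in the same order for several of these genes. CML-TKI 1 was the lowest of the 4 for G6pdx, Pgd, Taldo1, Idh1, Tkt, Rpia, Pgls and Me2, and was the second lowest for Rpe. CML-TKI 1 also had the smallest sums of granulocyte markers, at 1419 CPM against 7006 to 8131 CPM, and of monocyte and macrophage markers, at 636.7 CPM against 1689 to 3463 CPM, in the CML-TKI group. Among the 12 granulocyte markers 11 rose, and 6 of the 7 monocyte markers tested rose, against 6.29% of all genes. Ly86 had 4, 1, 2 and 0 counts in CML 1, 2, 3 and 5 and passed the filter on low counts through its CML-TKI levels. The numbers of markers called were thus partly set by that filter. C1qa, C1qb and C1qc failed it and were not tested. Mpo went from 2.70 to 25.8 CPM in CML to 695.0 to 4638 CPM in CML-TKI, and F13a1 from 2.32 to 6.54 CPM to 302.6 to 1856 CPM. The part of these cells, or of the stem cell, megakaryocyte, basophil, endothelial and stromal markers given above, in the levels of the pentose phosphate genes was not tested.

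With all 8 libraries, no other tested gene of the pathway was called. Of 15 further pentose phosphate genes, 13 were in the table and 10 were tested. By edgeR none of the 10 had an adjusted p under 0.05, against 6.29% higher and 3.93% lower over all genes. A count of 0 among 10 genes lies near these shares. None of the 10 had an unadjusted p under 0.05, against 3073 of all 11937 genes tested. DESeq2 and limma-voom called none. Of their log2 fold changes 2 were above 0 and 8 below it, with a median of -0.19. The list holds the Prps genes, whose products turn ribose-5-phosphate into the precursor of nucleotides. Prps1 was at 60.1 ± 2.93 CPM in CML and 53.2 ± 10.1 CPM in CML-TKI, and Prps2 at 118.1 ± 20.5 and 97.5 ± 20.3 CPM (SD, n = 4 each). Tktl1 and Tktl2 were not analysed here. None of the 10 tested genes was without overlap between the groups, against 10.3% of all genes higher and 13.1% lower without overlap. Pgm1 was higher in CML-TKI when CML-TKI 1 and 3 were left out, the 1 call among 11 genes then tested, against 10.5% higher over all genes. Without CML-TKI 4 G6pd2 could be tested and was higher. With the filter on low counts removed, all 13 genes in the table, G6pd2 among them, were tested and none was called.

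Of 12 further genes of NADPH and folate routes, 10 were tested, 1 rose and 1 fell, against 6.29% higher and 3.93% lower over all genes, and the median log2 fold change was 0.0049. Mthfd2, the mitochondrial methylenetetrahydrofolate dehydrogenase, rose from 15.9 ± 1.84 to 63.9 ± 27.1 CPM (log2 fold change 2.02, SE 0.35, edgeR adjusted p = 0.00662, n = 4 each). Aldh1l1, the cytosolic formyltetrahydrofolate dehydrogenase, which makes NADPH, fell from 27.98 ± 8.54 to 7.65 ± 3.85 CPM (log2 fold change -1.94, SE 0.43, edgeR adjusted p = 0.0203, n = 4 each). Nnt, the transhydrogenase of mitochondria, went from 45.2 ± 6.74 to 91.6 ± 43.8 CPM without passing the test (edgeR adjusted p = 0.0865, n = 4 each). Aldh1l2, the mitochondrial counterpart of Aldh1l1, was at 212.2 CPM in CML-TKI 1 and at most 2.19 CPM in any other library, a pattern like that of Me1, and was not tested. Me3 was not analysed here.

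Among 18 genes whose products use NADPH, 5 rose and 1 fell, against 6.29% higher and 3.93% lower over all genes, and the median log2 fold change was 0.23. Gsr, which encodes glutathione reductase, rose 6.62-fold, from 46.0 ± 7.18 to 304.6 ± 151.8 CPM (log2 fold change 2.72, SE 0.38, edgeR adjusted p = 0.00235, n = 4 each). Its order in CML-TKI resembled that of G6pdx and Pgd, with CML-TKI 1 lowest at 128.8 CPM and CML-TKI 2 highest at 499.6 CPM. The phagocyte NADPH oxidase genes Cybb, Ncf1, Ncf4 and Cyba also rose, with log2 fold changes of 4.85, 3.97, 4.10 and 1.51 (edgeR adjusted p = 0.00151, 8.70e-04, 8.70e-04 and 0.0446). Cybb, its catalytic subunit, lay between 4.81 and 23.2 CPM in CML and between 139.2 and 676.5 CPM in CML-TKI. Oxidase genes are themselves characteristic of granulocytes and monocytes. Por, the reductase that passes electrons from NADPH to cytochromes P450, fell from 108.9 ± 24.7 to 43.1 ± 12.2 CPM (log2 fold change -1.33, SE 0.27, edgeR adjusted p = 0.0125, n = 4 each).

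Of 9 regulators of the oxidative branch, 1 was called higher, against 6.29% of all genes, and the median log2 fold change was -0.33. Tigar, a phosphatase that directs glucose-6-phosphate into the pathway, was at 4.77, 3.67, 4.06 and 2.47 CPM in CML and at 14.1, 40.9, 20.8 and 9.62 CPM in CML-TKI. All 4 treated libraries lay above the CML libraries (log2 fold change 2.50, SE 0.54, edgeR adjusted p = 0.0175), at low levels. Nfe2l2, the factor that binds the antioxidant response element, was at 52.2 ± 8.11 and 67.6 ± 26.4 CPM (edgeR adjusted p = 0.469), and its inhibitor Keap1 at 102.0 ± 10.97 and 65.7 ± 13.7 CPM (edgeR adjusted p = 0.1003, n = 4 each). Of 19 TCA cycle and partner genes, 1 was called higher, a share below the 6.29% of all genes. This was Cs, which encodes citrate synthase, from 200.5 ± 7.45 to 315.7 ± 45.0 CPM (log2 fold change 0.66, SE 0.18, edgeR adjusted p = 0.0498, n = 4 each), with a list median of 0.33. In the fit without CML-TKI 1 and 3, 9 of the 10 genes called over these 5 lists were called in the same direction, Cs was not (edgeR adjusted p = 0.0621), and 15 list genes were called in all, while calls over all genes went from 1220 to 3262.

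**Figure D5:**
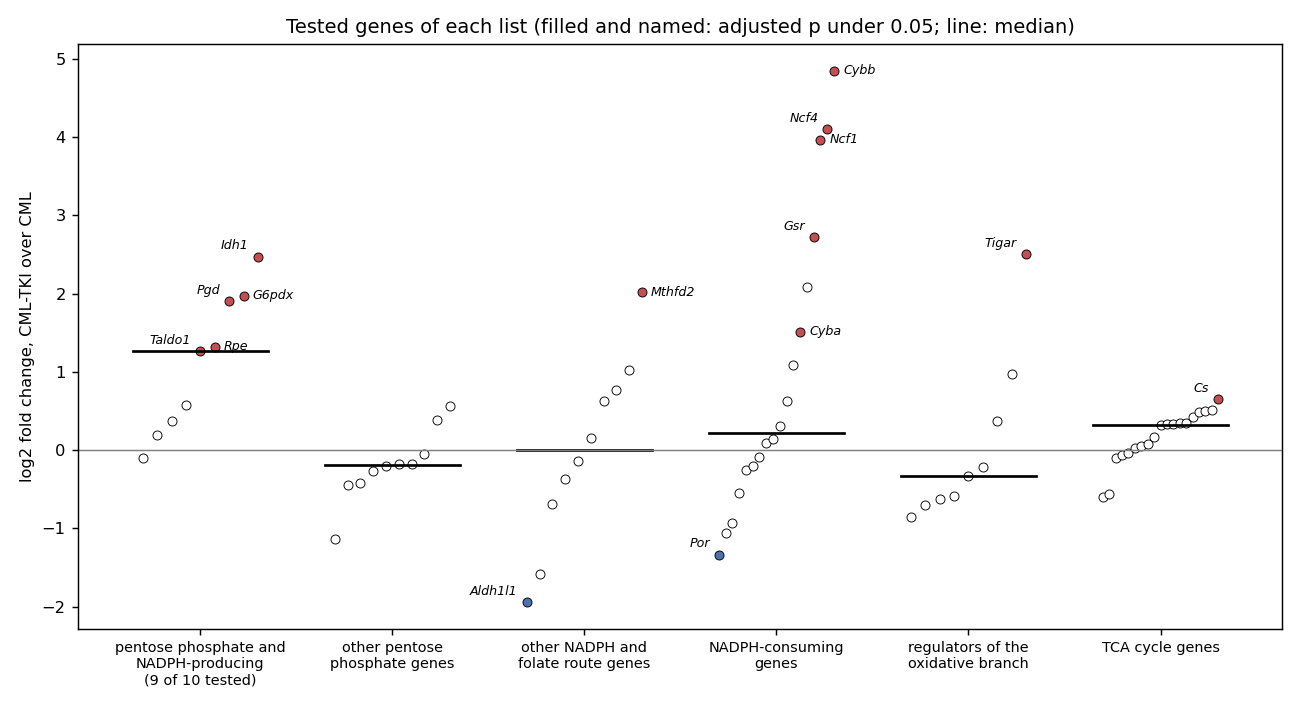
Log2 fold change, CML-TKI over CML, of each tested gene of 6 lists, with filled and named points for an edgeR adjusted p under 0.05 and a line for the median of the list. The median is 1.27 for the pentose phosphate and NADPH-producing genes described here and between -0.33 and 0.33 for the other lists.

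All 5 calls among the pentose phosphate and NADPH-producing genes depended on counting CML 1, 2 and 3 as separate libraries. Their biological coefficient of variation was 11.02%, against 28.04% for the 4 CML libraries and 69.2% for the 4 CML-TKI libraries. Summed to 1 library, they left 2 CML libraries, and the log2 fold changes of the 5 genes lay between 1.14 and 2.51, against 1.27 to 2.47 with all 8 libraries. Calls over all genes fell as well in that fit, from 1220 of 11937 to 122 of 12564.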

How the data were processed

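The authors aligned paired reads of Nextera XT libraries to mm10 with STAR 2.6.1d, estimated RefSeq transcript counts with Partek Flow (Partek 8.0 in the submitters' processing notes), and deposited them per gene in the form of expected counts that are not normalized. Between 8.3% and 22.1% of a library's values were not whole, 20 symbols had been turned into dates, and strand and the handling of reads shared by genes are not given in the sources used here, so overlapping genes and near copies are uncertain. The labels number the CML libraries 1 to 4 and the columns 1, 2, 3 and 5, so column 5 entered as a CML library that no label number identifies. Expected counts were rounded to whole numbers and tested in R 4.3.3 with edgeR 4.0.16 (TMM, filterByExpr with a minimum count of 10 and a minimum total of 15, robust quasi-likelihood test) over 11937 genes with all 8 libraries, Benjamini-Hochberg adjustment and a threshold of 0.05. The script was tested on simulated data. CPM values are TMM-normalized, and fold changes named as fold are ratios of mean CPM. Intervals and floors cover counting error only.

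The 10 genes, the lists and the tests were chosen with earlier results of these data known, and gene lists are given as counts beside the share of all genes called. The genes named are the 10, the called genes of the pathway lists (up to 8 a list by adjusted p), their isoenzyme partners Idh2, Me3, H6pd, Tktl1 and G6pd2, the gate markers and up to 2 abundant markers a list. Any other gene was singled out once its values had been seen. Promoters and positions come from RefSeq tables of GRCm38.p6, the assembly of mm10. The mRNA lengths are those of GENCODE protein-coding transcripts linked to a RefSeq mRNA. Alternatives were DESeq2 1.42.0, limma-voom (limma 3.58.1) with sample quality weights, other scalings, no filter, thinning, libraries left out or summed, and a replicate block. The K562, ChIP-seq, protein and metabolite data were not analysed here.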

Additional observations from a re-analysis of the deposited data

Results flagged for a closer look

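Within groups of 4 libraries, 5 of 34 values tested had an extreme library by Dixon's criterion, where chance gives about 1.7, and the 5 are not independent. Rpia in CML 5 was at 47.2 CPM, with the next CML library at 26.8 CPM. Tkt in CML 5 was at 562.8 CPM, with the next at 401.7 CPM, and the sum of the non-oxidative genes, most of which is Tkt, was 709.9 CPM in that library, with the next at 515.9 CPM. Me1 in CML-TKI 1 was at 57.7 CPM, with the next CML-TKI library at 1.10 CPM, and the ratio of Me1 to Me2 there was 0.622, with the next at 0.0105. The causes were not tested.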

How the results depend on the processing

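Genes called numbered 1220 over all genes, 5 among the 9 pentose phosphate and NADPH-producing genes tested and 10 over the other lists. These counts were 2157, 5 and 19 with DESeq2, 2563, 5 and 17 with limma-voom, 589, 3 and 6 over libraries 1 to 3 of each group, 122, 0 and 3 with CML 1 to 3 summed, 617, 3 and 6 after thinning, and 3262, 7 and 15 without CML-TKI 1 and 3. With 1 library left out they ranged from 505 (without CML 1) to 2504 (without CML-TKI 1), from 4 to 5, and from 6 to 16. Leaving out CML 2, 3 or 5 gave 552, 570 and 808 genes. Scaling by total counts without Rn45s changed the split of higher to lower calls from 751 and 469 to 602 and 589, with a median log2 fold change of -0.14 over all genes, and kept 5 calls among the pentose phosphate and NADPH-producing genes. The causes were not tested, except that summed and left-out libraries leave fewer samples and thinning leaves fewer counts.

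Deviations from the group mean correlated at -0.04, 0.10 and 0.09 between same-numbered libraries. Between differently numbered libraries they correlated at -0.10 to 0.10. These values show no pairing by replicate number, but they cannot exclude a shared mouse or batch. With the replicate block, 193 genes, 0 of the pentose phosphate and NADPH-producing genes (5 at an unadjusted p under 0.05, as with CML 1 to 3 summed; edgeR adjusted p from 0.0687 to 0.123 for the 5) and 3 list genes were called.

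Pgls changed sign to 0.19 with limma-voom, 0.13 with the replicate block, 0.16 over libraries 1 to 3, 0.21 after thinning, 0.22 without CML 5 and 0.05 without CML-TKI 1, and ranged from -0.23 to 0.22 with 1 library left out, never past the threshold. The other 8 tested genes stayed above 0 under every alternative run. Depth limits what can be said of Me1 in CML-TKI 3, where its 1 count lay under the floor of 3.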
